A study of Homo sapiens with 6 samples.

Results

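The HOX clusters are described here with the antisense and other non-coding transcripts that lie among them, in HEK293T cells that did or did not carry a plasmid for a bacterial enzyme that makes polyphosphate. The members were picked by a rule on the symbol, which was set with earlier results of these data known. They are the genes whose symbol starts with HOXA, HOXB, HOXC or HOXD followed by a digit or a hyphen, together with HOTAIR, HOTAIRM1 and HOTTIP. The rule found 64 of the 58051 genes in the count table. Of these, 39 are coding genes, 16 are antisense or other long non-coding genes, 1 is the readthrough HOXA10-HOXA9, and 8 are short fragments annotated inside HOXA11-AS or PRAC2. A total of 53 members had enough counts to be tested, of which 37 were coding, 14 non-coding and 2 fragments. The 11 that did not were HOXB1, HOXD12, HOXB-AS2, HOXB-AS4, HOXA10-HOXA9 and 6 fragments, and 4 of these fragments had no count in any library.

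HOX genes encode homeodomain transcription factors that set the identity of body segments along the head-to-tail axis. They sit in 4 clusters, HOXA on chromosome 7, HOXB on chromosome 17, HOXC on chromosome 12 and HOXD on chromosome 2, and genes with the same number in different clusters form a paralogue group descended from a single ancestral gene. Low numbers are used towards the head and high numbers towards the tail and in the limbs. Polycomb complexes keep the clusters silent, Trithorax and MLL complexes keep them active, and cells in culture usually retain the HOX pattern of the tissue they came from. Several non-coding transcripts run among the coding genes, most of them on the opposite strand. HOTAIR and HOTTIP are known for their links to Polycomb and MLL complexes.

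HEK293T is a line of human embryonic kidney cells that carries the SV40 T-antigen. Both groups were HEK293T cells transfected transiently with a lipid reagent and harvested after 48 hours. The control group (CTRL, 3 libraries) received the empty plasmid pcDNA3.1-, and the other group (PPK1, 3 libraries) received pcDNA3.1-ppk1+, with ppk1+, which encodes polyphosphate kinase of bacteria. Each letter (B, C, D) marks a matched biological replicate with 1 library of each group. The bacterial transcript is not among the human genes of the table and was not analysed here, so the counts hold no check of which library expressed the enzyme. RNA was selected by its poly(A) tail, which measures non-coding transcripts without a tail poorly. Total counts ran from 40851783 to 67122986 a library, and PPK1 B was the deepest. At these depths, 3 counts, the limit that a count of 0 allows, correspond to 0.0447 to 0.0734 CPM (counts scaled to a common library size). That limit covers counting error only.

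Defining markers were read beside the HOX genes. The 10 markers of embryonic kidney summed to 132.2 to 139.3 CPM in CTRL and to 134.4 to 141.4 in PPK1. None of the 9 tested kidney markers was called, and PAX8, a kidney marker, was at or under 3 counts. The 10 neuronal markers summed to 286.9 to 396.9 CPM in CTRL and to 278.7 to 313.8 in PPK1, with 1 called higher and 1 lower. The 6 blood markers summed to at most 2.848 CPM in any library. The sum of the 5 epithelial markers was higher in every PPK1 library (80.79 to 83.14 CPM) than in every CTRL library (69.96 to 75.93). KRT18 was the 1 called, higher, while KRT8, CDH1 and EPCAM had log2 fold changes of 0.07, -0.16 and -0.04 and were not called. The part of this in the HOX changes was not tested. The 7 fibroblast markers summed to 21.03 to 25.83 in CTRL and 24.07 to 24.35 in PPK1, with 1, PDGFRB, called lower. DBH (neuronal and adrenal), KRT19 (epithelial), COL1A2 and DCN (fibroblast), and CD3E and HBB (blood) were at or under 3 counts.

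Promoter sequences were read for the 30 members found in the RefSeq table of GRCh38.p14, in windows of 300 bases (250 before the start and 50 after it). The windows of HOXA13 (chr7:27200042-27200341, minus strand) and HOTTIP (chr7:27200171-27200470, plus strand) are printed because the gene and its antisense neighbour start close together and were compared in the counts. Capitals mark the 171 bases that both windows cover, read on opposite strands.
HOXA13: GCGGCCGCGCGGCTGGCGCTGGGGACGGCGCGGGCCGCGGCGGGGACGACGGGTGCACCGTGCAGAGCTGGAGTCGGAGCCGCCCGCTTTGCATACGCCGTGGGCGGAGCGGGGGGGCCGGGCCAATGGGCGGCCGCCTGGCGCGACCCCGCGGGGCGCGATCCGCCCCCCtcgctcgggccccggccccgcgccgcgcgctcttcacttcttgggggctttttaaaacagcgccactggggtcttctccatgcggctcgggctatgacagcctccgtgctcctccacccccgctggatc
HOTTIP: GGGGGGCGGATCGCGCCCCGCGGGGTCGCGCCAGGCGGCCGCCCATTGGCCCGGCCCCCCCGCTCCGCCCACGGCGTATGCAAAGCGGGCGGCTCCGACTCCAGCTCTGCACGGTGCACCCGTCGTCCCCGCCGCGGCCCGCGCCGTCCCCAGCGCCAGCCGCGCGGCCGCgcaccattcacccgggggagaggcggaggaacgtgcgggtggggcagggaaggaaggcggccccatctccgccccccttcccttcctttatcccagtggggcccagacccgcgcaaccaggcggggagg

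The window of HOXA2 (chr7:27102634-27102933, minus strand) is printed because, among the windows of called genes in the table (HOXA2, HOXA3, HOXA7 and HOXA13), it alone holds the composite letters of HOX and PBX proteins, TGATNNAT, searched on both strands. Capitals mark the match, which lies on the opposite strand of the window.
HOXA2: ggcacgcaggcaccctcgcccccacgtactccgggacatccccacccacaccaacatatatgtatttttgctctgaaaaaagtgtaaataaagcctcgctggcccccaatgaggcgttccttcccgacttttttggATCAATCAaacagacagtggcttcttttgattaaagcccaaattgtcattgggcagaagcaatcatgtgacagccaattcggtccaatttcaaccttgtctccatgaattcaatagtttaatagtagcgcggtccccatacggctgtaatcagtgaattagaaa
The letters TGATNNAT were in 4 of 37 member windows (10.8%) and in 7.42% of all 34935 windows of the table. The letters of the TATA box, TATAAA, also searched on both strands, were in 6 member windows (16.2%) and in 11.6% of all windows. No member window held both. The letters of EGR sites, GCGTGGGCG and GCGGGGGCG, were in 0 and in 1 member window (2.7%), and in 0.796% and 5.06% of all windows. The windows of HOXA13, HOXA2 and HOXA7 (chr7:27156626-27156925, minus strand) had no TATAAA on either strand. In HOXA3, 1 of the windows had it, on the opposite strand of the window only. A match is a description of the letters and not a measured binding site.

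All 39 coding members hold a homeobox, a stretch of 180 bases found by translating the GENCODE 29 transcripts. Members of the same paralogue group shared a median of 81.7% of these bases (42 pairs, from 69.4% to 90.6%), and members of different groups shared a median of 60.6% (699 pairs). The 51 bases of the homeobox that code for the recognition helix and the residues next to it, the part that reads bases in DNA, are printed for paralogue group 13, which holds HOXA13, a gene that fell. Capitals mark the bases that differ from HOXA13.
HOXA13: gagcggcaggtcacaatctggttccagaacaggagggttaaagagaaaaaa
HOXB13: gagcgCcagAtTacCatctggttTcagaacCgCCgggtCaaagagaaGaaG
HOXC13: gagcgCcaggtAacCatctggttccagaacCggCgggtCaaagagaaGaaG
HOXD13: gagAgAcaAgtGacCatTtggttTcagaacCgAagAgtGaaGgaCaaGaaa
HOXC13 differed from HOXA13 at 8, HOXB13 at 11 and HOXD13 at 14. The closest homeobox to that of HOXA13 was that of HOXC13, which shared 76.1% of bases.

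The first question was which HOX genes the control cells used. Levels are given per length, as CPM divided by the kilobases of exon, so that genes can be compared. The length is that of all annotated exons of a gene merged. In some genes it is longer than the longest coding transcript in which the homeobox was found. It was 2692 against 1989 bases for HOXD10 and 3029 against 2060 for HOXA9. The order of genes with close levels therefore depends on this choice of length. The HOXA and HOXB clusters held most of the HOX signal. In CTRL, HOXA members made up 34.27 ± 0.80% (SD, n = 3) of the summed level per length of all members, HOXB 31.1 ± 1.1%, HOXD 20.36 ± 0.35% and HOXC 14.27 ± 0.37%. Coding genes made up 87.75 ± 0.82%, and the 16 antisense or non-coding genes 11.18 ± 0.75%. With coding members only, the order of the first 2 clusters turned, with HOXB at 33.98% and HOXA at 29.79%. Without division by length, HOXB at 34.04 ± 1.28% and HOXA at 33.63 ± 0.94% overlapped, and HOXA was the higher in CTRL D.

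By paralogue group, the high-numbered genes dominated. Groups 9 to 13 made up 53.47 ± 0.25% of the summed level per length in CTRL, groups 4 to 8 made up 29.03 ± 0.80%, and groups 1 to 3 made up 5.255 ± 0.068%. Group 9 alone held 23.86 ± 0.28%, group 10 held 11.49 ± 0.23% and group 13 held 11.11 ± 0.52%. Group 12, with HOXC12 and HOXD12, held 0.1081 ± 0.0062%. The pattern therefore had a gap at group 12 between well-expressed neighbours on either side.

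HOXB9, a gene used in the thoracic region, had the highest level per length of the coding members. Its level per length was 85.1, 75.7 and 71.5 in CTRL B, C and D, and its lowest library was above every library of the next gene. HOXD13, a gene of the digits and genital region, followed at 37.2 ± 1.5 (SD, n = 3). HOXD10 (32.3 ± 2.7) and HOXA5 (30.7 ± 1.5) came next and their ranges over the CTRL libraries overlapped. HOXA9, known for its part in blood progenitors, stood at 23.8 ± 0.31, apart from both neighbours in the order. From HOXB6 (rank 6, 19.4 ± 1.1) down to HOXD9 (rank 13, 15.2 ± 2.3), each gene overlapped with the next, so this order was not resolved. Over the whole order, 13 neighbouring pairs had ranges that did not overlap. These ranges hold the spread between libraries only and not the choice of length, on which the places of HOXD13, HOXD10, HOXA5 and HOXA9 also depend.

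Of the 39 coding members, 33 had a mean CTRL level per length of at least 1, and 14 of at least 10. In the HOXA cluster the highest coding genes were HOXA5, HOXA9 and HOXA10 (19.3 ± 0.63). In HOXB they were HOXB9, HOXB6 and HOXB8 (18.5 ± 2.5), in HOXC they were HOXC4 (17.4 ± 0.57), HOXC9 (11.2 ± 0.42) and HOXC10 (9.87 ± 0.57), and in HOXD they were HOXD13, HOXD10 and HOXD11 (15.7 ± 1.1). The low end held HOXD3 (0.482 ± 0.046), HOXC12 (0.476 ± 0.029), HOXD1 (0.309 ± 0.043), HOXC5 (0.239 ± 0.026) and HOXD12 (0.102 ± 0.031). HOXB1, a hindbrain gene, was lowest at 0.0058 ± 0.0052. Within clusters, low genes stood beside high ones, as HOXC5 did between HOXC4 and HOXC6 (6.23 ± 0.42). Exons of HOXC5 overlap other genes on the same strand over 59.9% of their length, and those of HOXD3 over 62.2%. The counts of both genes therefore depend on how shared reads were assigned.

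**Figure D1:**
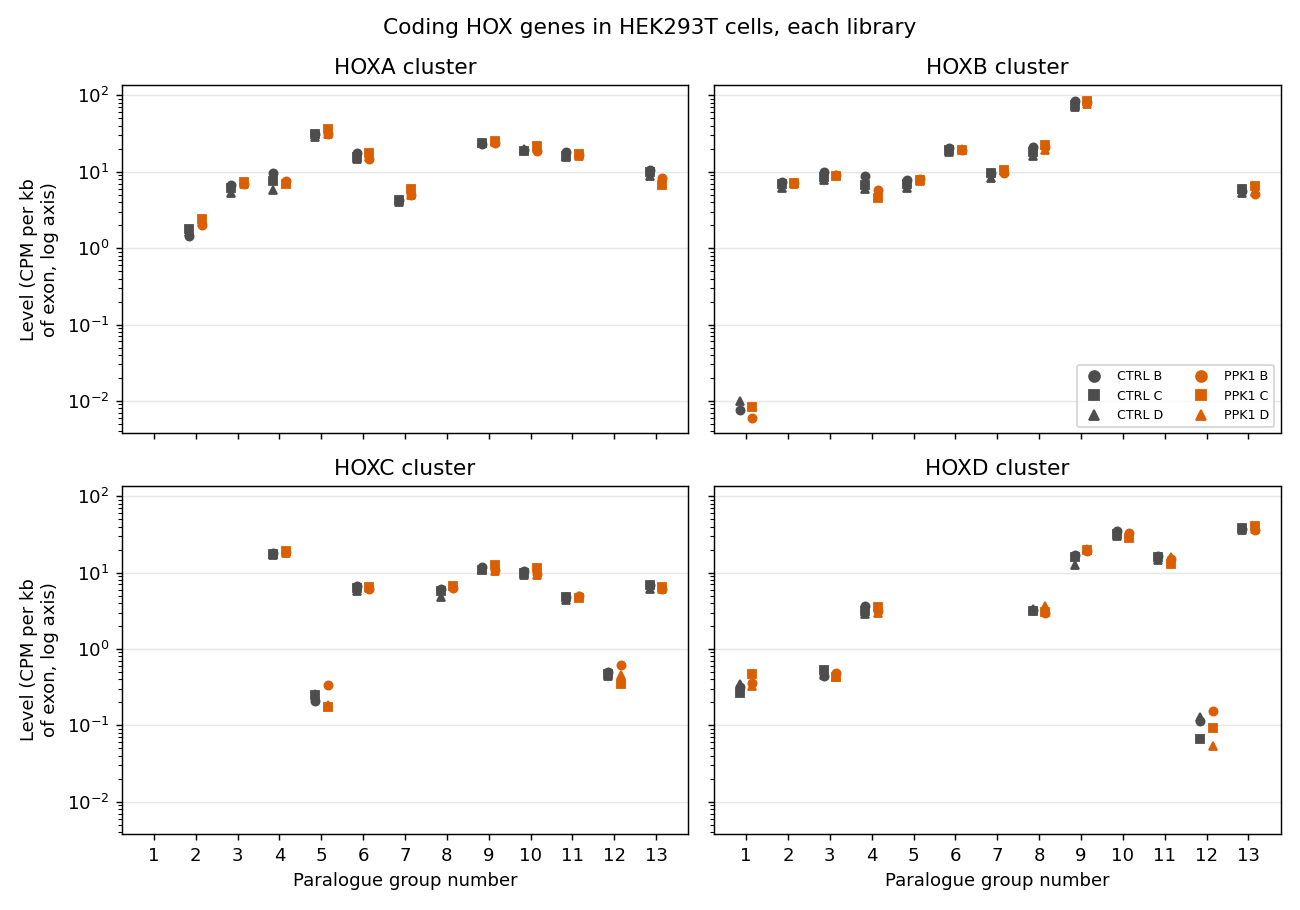
Level per length (CPM per kb of exon, log axis) of 38 of the 39 coding HOX genes against its paralogue group number, 1 panel per cluster, with a point for each of the 6 libraries (a library at 0 is not drawn). HOXB9 stood highest, HOXB1 lowest, and CTRL and PPK1 points lay close together for most genes.

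Among the non-coding members, HOTAIRM1, a myeloid-associated transcript of the HOXA cluster, was highest in CTRL. Its level per length was 29.5, 26.0 and 30.3 in B, C and D. HOTAIR, transcribed within the HOXC cluster, stood at 6.43, 6.25 and 6.92. HOXA11-AS was at 5.60, 5.90 and 5.39 and HOXC-AS1 at 3.58, 3.93 and 4.80. HOTTIP, beside HOXA13, was low, with 33 to 57 counts in the CTRL libraries, and is given although it falls below the minimum of 50 mean counts set for naming. Most antisense transcripts set against a coding neighbour were lower than it, with HOXD-AS2 higher. The neighbour of HOXD-AS2 is HOXD3, whose counts depend on how reads shared with an overlapping gene were assigned.

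The second question was what changed with ppk1. The total HOX signal differed by less than the spread between replicates. The summed level per length of all members was 568, 532 and 504 in CTRL B, C and D, and 540, 560 and 540 in PPK1 B, C and D. The PPK1 values lay inside the CTRL range. Cluster shares were close to the control ones, with HOXA at 33.8 ± 0.51% in PPK1 (SD, n = 3), HOXB at 31.5 ± 0.51%, HOXD at 20.6 ± 0.66% and HOXC at 14.2 ± 0.13%. In bulk RNA, fewer cells with a transcript and less of it per cell cannot be told apart.

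Single genes differed in both directions. Of 53 tested members, 6 (11.3%) had an adjusted p below 0.05 in edgeR's quasi-likelihood test, beside 9.08% of all 19574 genes tested, so the share of HOX members called was near the background. HOXD9, HOXA2, HOXA7 and HOXA3 rose and HOXB4 and HOXA13 fell. The 4 called higher compare with 4.04% of all genes, and the 2 called lower with 5.04%. All 6 are coding genes, and 4 of them belong to the HOXA cluster. Of the 53 tested members, 37 are coding and 19 belong to the HOXA cluster. The median log2 fold change of the tested members was 0.01, beside 0.01 for all genes tested, with 30 members above 0 and 23 below.

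With the called genes included, 7 members had every PPK1 library above every CTRL library, which 13.0% of all genes tested had. In 3 members every PPK1 library was below, which 12.6% of all genes had. All the called genes are among these members. A rise in all 3 matched pairs was seen in 10 members, beside 22.6% of all genes, and a fall in all 3 pairs in 7, beside 21.1%. Of 53 members, 7 is a share near the background for the first of these counts, and the other counts are below their background shares. No difference from the background was tested.

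HOXB4, a gene known for expanding blood stem cells in culture, fell. It had 33.3, 24.96 and 22.2 CPM in CTRL B, C and D and 21.5, 17.0 and 17.9 in PPK1 B, C and D. The groups did not overlap, although CTRL D and PPK1 B were close. The log2 fold change was -0.50 with a standard error (SE) of 0.08, and the adjusted p in edgeR was 2.36e-05. It was lower in 3 of 3 pairs. Of its exons, 17.1% overlap genes on the same strand, among them HOXB3 and the microRNA gene MIR10A. HOXB3 had a log2 fold change of 0.06 and was not called, and MIR10A, with 18 to 51 counts a library, had -0.58 and was not called (edgeR adjusted p = 0.125).

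HOXA13, a gene of the hand, foot and urogenital tract, also fell. It had 53.7, 51.3 and 45.02 CPM in CTRL B, C and D and 41.7, 34.5 and 36.4 in PPK1 B, C and D. Every PPK1 library was below every CTRL library. The log2 fold change was -0.41 with an SE of 0.08, and the adjusted p in edgeR was 0.00015. It was lower in 3 of 3 pairs.

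HOXD9, a gene of the posterior trunk and limb, rose. It had 31.9, 29.7 and 23.8 CPM in CTRL B, C and D and 35.4, 37.0 and 37.8 in PPK1 B, C and D. The groups did not overlap, and the pair D, with the lowest control, differed most. The log2 fold change was 0.37 with an SE of 0.08, and the adjusted p in edgeR was 0.00167. Without replicate D it was 0.21 and not called (edgeR adjusted p = 0.0849).

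HOXA2, a gene of the hindbrain and second pharyngeal arch, rose from a low level. It had 3.56, 4.36 and 4.06 CPM in CTRL B, C and D and 4.94, 5.93 and 5.46 in PPK1 B, C and D. The 3 pairs moved by similar amounts, and the groups did not overlap. The log2 fold change was 0.45 with an SE of 0.12, and the adjusted p in edgeR was 0.0105. HOXA2 is also the lowest in level per length of the 6 called genes, at 1.62 ± 0.16 in CTRL (SD, n = 3).

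HOXA7, a gene of the thoracic region, rose. It had 10.2, 10.2 and 9.67 CPM in CTRL B, C and D and 12.0, 14.2 and 12.0 in PPK1 B, C and D. PPK1 C stood highest, and the groups did not overlap. The log2 fold change was 0.33 with an SE of 0.09, and the adjusted p in edgeR was 0.0169. Exons of the antisense gene HOXA-AS3 cover 62.5% of the exon length of HOXA7 on the opposite strand. HOXA-AS3 had a log2 fold change of 0.08 and was not called.

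HOXA3, a gene needed for the thymus and parathyroid, had the smallest change of the called genes. It had 28.5, 26.5 and 22.6 CPM in CTRL B, C and D and 29.9, 31.9 and 30.2 in PPK1 B, C and D. The gap between the highest control and the lowest PPK1 library was narrow, and both of these libraries carry the letter B. The log2 fold change was 0.25 with an SE of 0.08, and the adjusted p in edgeR was 0.0397.

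**Figure D2:**
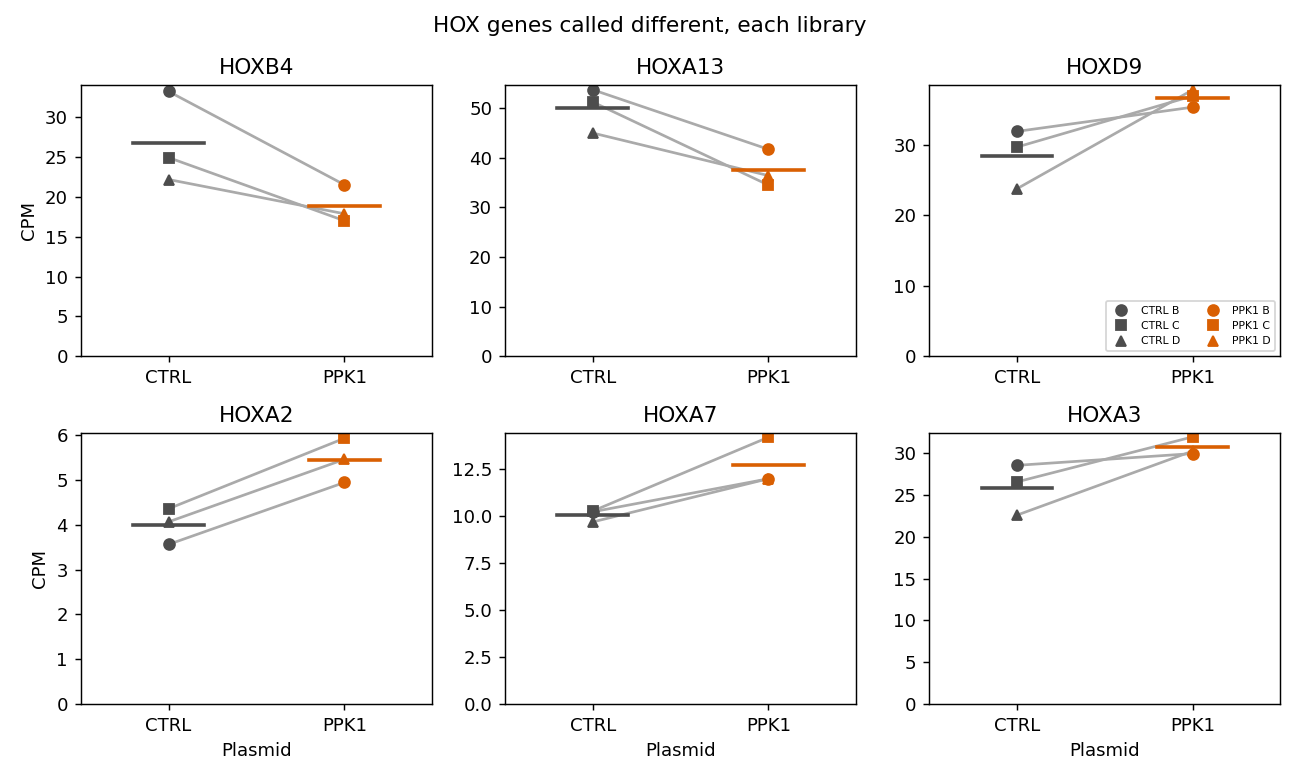
CPM of the 6 called HOX genes in each library, with grey lines joining the matched replicates and bars at the group means. HOXB4 and HOXA13 fell in each pair, the other genes rose in each pair, and no gene's groups overlapped.

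Each call was lost under at least 1 alternative. Without the pairing, where 2.4% of all genes were called, only HOXA13 was called (edgeR adjusted p = 0.0345). The other 5 had adjusted p-values from 0.0697 (HOXB4) to 0.174 (HOXA3). Without replicate C, where 2.06% of all genes were called, HOXB4 (adjusted p = 0.013) and HOXD9 (0.0481) were called. HOXA13 had an adjusted p of 0.155 there. DESeq2 with the pairing called HOXB4, HOXA13 and HOXD9 and gave adjusted p-values of 0.131 for HOXA2, 0.113 for HOXA7 and 0.157 for HOXA3. HOXA3 was not called in 8 of the 11 alternatives run. Those not yet named were upper-quartile scaling (edgeR adjusted p = 0.095), no filter on low counts (0.0655), a filter of at least 50 counts on average (0.059), GC and length offsets (0.0559) and the fit without replicate D (0.284). The direction of each of the 6 genes was the same under all 11 alternatives run.

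The next genes in order of p missed the threshold. HOXC13-AS stood at -0.42 on the log2 scale (SE 0.16, adjusted p = 0.0864 in edgeR), HOXC8, a thoracic and lumbar gene, had 0.25 (SE 0.10, 0.0904), and HOXB-AS1 had -0.32 (SE 0.13, 0.108). HOXC8 lies outside the rule for named genes and was chosen after its values were seen. Without replicate B, where 12.5% of all genes were called, HOXB8 and HOXC8 were called. Without replicate D, HOXB-AS1 (adjusted p = 0.0248) and HOXC13-AS (0.0255) were called and HOXA3 and HOXD9 were not.

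By cluster, counts of called coding members are read beside the 9.08% of all genes called. In HOXA, 4 of 11 tested coding members (36.4%) were called, 3 higher and 1 lower, and the median log2 fold change of the 11 was 0.05. HOXB had 1 called of 9 (11.1%), with a coding median of 0.06, and 8 of the 9 had a positive value. The coding median of HOXB in pair B alone was -0.06, and the median of all tested HOXB members (0.06) was -0.03 without replicate D and -0.02 with GC and length offsets. HOXC had 0 called of 9 tested coding members in edgeR, 1 of them, HOXC8, had an unadjusted p under 0.05, and DESeq2 called none. Its coding median was 0.01. HOXD had 1 called of 8 (12.5%), with a coding median of -0.02. Whether the clusters differed from each other was not tested.

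The most abundant genes were not among those called. HOXB9 had level per length values of 81.9, 85.1 and 77.4 in PPK1 B, C and D, all inside the CTRL range, and a log2 fold change of 0.08 (SE 0.07). HOXD13 had 35.8, 40.9 and 37.6, and a log2 fold change of 0.03 (SE 0.07). HOXA5 had 0.10 (SE 0.08), HOXA9 0.05 (SE 0.07), HOXA10 0.07 (SE 0.08), HOXD10 -0.05 (SE 0.08) and HOXD11 -0.10 (SE 0.08). HOXD11 was called lower with GC and length offsets beside the pairing (-0.19, edgeR adjusted p = 0.0288), a setting that called 14% of all genes. HOXB8 had 0.17 (SE 0.08), HOXC4 0.09 (SE 0.07), and HOXB6, HOXC9 and HOXC10 lay between 0.01 and 0.03.

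**Figure D3:**
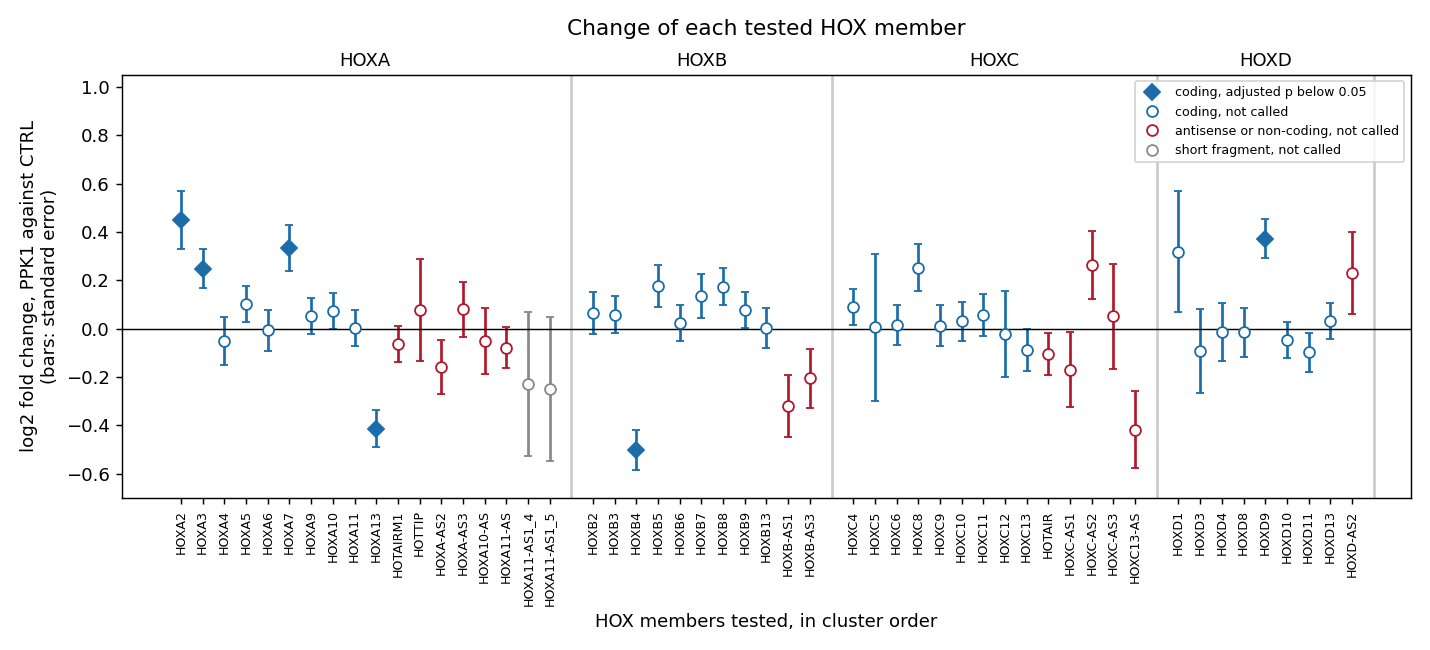
Log2 fold change of PPK1 against CTRL for 52 of the 53 tested members, with bars of 1 standard error, in order of cluster, class and paralogue group. Filled diamonds are the 6 called genes, 4 above 0 and 2 below, and all of them are coding genes. Of the 53 tested members, 37 are coding.

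Within the paralogue groups of HOXB4, HOXA13 and HOXD9, the other members were not called. In group 4, HOXB4 fell by 0.50 on the log2 scale, while HOXA4 had -0.05, HOXC4 0.09 and HOXD4 -0.01, none of them called. Exons of HOXD4 overlap other genes on the same strand over 80.5% of their length, and those of HOXA4 over 31.0%. Their counts therefore also depend on how shared reads were assigned. In group 13, HOXA13 fell by 0.41, while HOXB13 had 0.00, HOXC13 -0.09 and HOXD13 0.03. In group 9, HOXD9 rose by 0.37, beside 0.05 for HOXA9, 0.08 for HOXB9 and 0.01 for HOXC9. All tested members had a value above 0 in group 2 (2 of 2), group 5 (3 of 3), group 7 (2 of 2) and group 9 (4 of 4). Differences between the changes of paralogues were not tested. Of the 7 tested members in groups 1 to 3, 2 were called higher (HOXA2 and HOXA3) and none lower, with 5 values above 0 and 2 below. HOXA3 lost its call in 8 of 11 alternatives. Groups 4 to 8 had 1 called higher and 1 lower of 15, and groups 9 to 13 had 1 called higher and 1 lower of 15. Of all genes tested, 4.04% were called higher and 5.04% lower. Whether these bands of groups differed was not tested.

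Of the 14 tested antisense and non-coding members, 0 were called by edgeR, beside 9.08% of all genes tested. An unadjusted p under 0.05 was seen in 2. Whether coding and non-coding members differed was not tested. DESeq2 with the pairing called none of them. HOXB-AS1 (edgeR adjusted p = 0.0274) and HOXC13-AS (0.0326) were called lower with GC and length offsets beside the pairing, as they were without replicate D. The fit with these offsets called 14% of all genes. The median log2 fold change of the 14 non-coding members was -0.07, with 5 above 0 and 9 below. HOTAIR had 6.13, 5.75 and 6.33 per length in PPK1 B, C and D and a log2 fold change of -0.11 (SE 0.09). HOTAIRM1 had 29.3, 25.1 and 27.8 and a log2 fold change of -0.06 (SE 0.07). HOXA11-AS had -0.08 (SE 0.08), HOXA10-AS -0.05 (SE 0.14), HOXA-AS2 -0.16 (SE 0.11), HOXB-AS3 -0.21 (SE 0.12), HOXC-AS1 -0.17 (SE 0.15), HOXC-AS2 0.26 (SE 0.14) and HOXD-AS2 0.23 (SE 0.17). Most of these standard errors were wider than those of the called coding genes, with HOTAIRM1, HOTAIR and HOXA11-AS among the narrow ones.

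Antisense transcripts were also set against their coding neighbours. HOTTIP was at 2.01, 2.03 and 1.79% of HOXA13 in CTRL B, C and D and at 2.66, 2.66 and 2.96% in PPK1 B, C and D. The ratio was higher in 3 of 3 pairs, with HOXA13 lower and HOTTIP at a log2 fold change of 0.08 (SE 0.21, 95% interval -0.33 to 0.49). These are the neighbours whose promoter windows, printed above, share 171 bases. HOXA11 and HOXA11-AS, whose windows share 275 bases, had log2 fold changes of 0.00 and -0.08, and their ratio was 34.1 ± 2.7% in CTRL and 32.2 ± 1.6% in PPK1 (SD, n = 3).

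Other ratios were lower in PPK1. HOXA-AS2 was at 21.6, 17.7 and 24.5% of HOXA3 in CTRL B, C and D and at 16.9, 15.2 and 15.6% in PPK1. HOXA-AS3 was at 20.02, 22.3 and 23.5% of HOXA7 in CTRL and at 18.7, 17.1 and 19.2% in PPK1. HOXB-AS1 was at 33.5, 31.5 and 31.3% of HOXB3 in CTRL and at 27.8, 21.4 and 25.4% in PPK1. In these ratios every PPK1 library was below every CTRL library. HOXC13-AS to HOXC13 behaved alike, at 26.9 ± 1.7% in CTRL and 21.7 ± 2.5% in PPK1 (SD, n = 3), as did HOXB-AS3 to HOXB6, at 14.2 ± 0.62% and 12.2 ± 1.1%. HOXC-AS2 to HOXC9 went the other way in all 3 pairs, from 11.4 ± 2.0% to 13.6 ± 0.93%, as did HOXD-AS2 to HOXD3, from 235.3 ± 46.8% to 293.6 ± 28.9%. Both of these ratios that rose overlapped between the groups. For HOXC-AS2, CTRL B was at 13.1% and PPK1 C at 12.9%, and for HOXD-AS2, CTRL D was at 274.2% and PPK1 B at 261.1%. The ratios of HOXA10-AS to HOXA10, of HOXC-AS3 to HOXC10 and of HOXA11-AS to HOXA11 overlapped as well. HOXA3 and HOXA7 were themselves called higher, while HOXA-AS2 and HOXA-AS3 were not called. For single genes, every PPK1 library was below every CTRL library in 12.6% of all genes tested and above in 13.0%. No such share was computed for ratios. The changes of these ratios were not tested. The strand setting of the counting is not given in the sources used here. Reads of a gene and its antisense partner may therefore not be fully told apart.

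**Figure D4:**
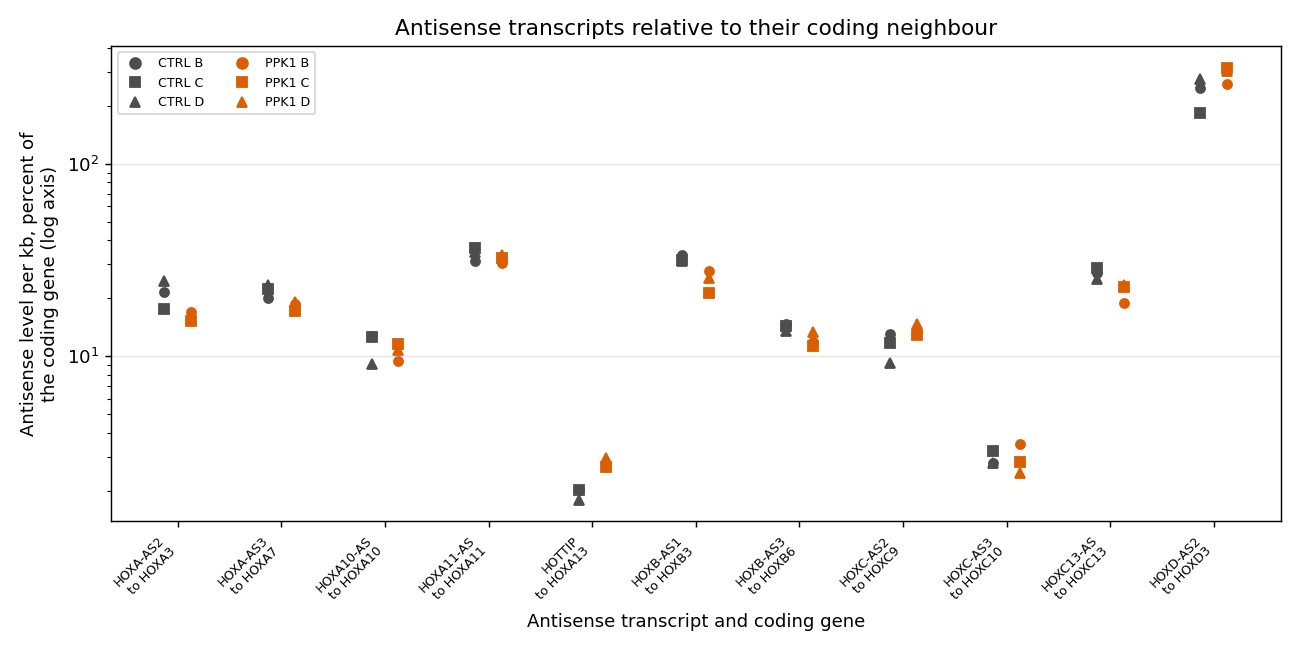
Level per length of 11 antisense transcripts as a percent of its coding neighbour (log axis), with a point per library. HOXD-AS2 lay above 100% in all libraries, and HOTTIP to HOXA13 was higher in each PPK1 library than in each CTRL library.

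Genes that act with or on the HOX clusters were read from 7 lists. Of the 9 TALE homeodomain cofactors, which bind DNA beside HOX proteins, 1 rose, PKNOX1, with a log2 fold change of 0.31 (edgeR adjusted p = 0.00785). MEIS1 had -0.18 and was not called. The list's median was -0.02. Of the 28 Polycomb genes, 2 rose and none fell, with a median of -0.02. The 2 were CBX6 (0.33, edgeR adjusted p = 0.00209) and CBX7 (0.30, 0.0211), chromodomain subunits of the Polycomb complex that modifies histone H2A. EZH2, the enzyme of the other complex, had -0.08 and was not called.

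Of the 19 Trithorax and MLL genes and H3K27 demethylases, 2 rose and 1 fell, with a median of 0.12 beside 0.01 for all genes. SETD1B (0.38, edgeR adjusted p = 0.00117) and KMT2D (0.28, 0.0174), both histone H3 lysine 4 methyltransferases, rose, and KDM6A, an H3K27 demethylase, fell (-0.26, 0.0202). The rises were small in pair B, at 0.07 for SETD1B and 0.02 for KMT2D. They were 0.50 and 0.28 in pair C and 0.59 and 0.53 in pair D. Whether the median of this list differed from that of all genes was not tested. Of the 19 tested genes of retinoic acid and posterior signals, RDH10, which makes retinal, rose (0.23, edgeR adjusted p = 0.0441) and STRA6, a retinol transporter, fell (-0.73, 0.0400). STRA6 was low, with 21 to 58 counts a library, and its change had an SE of 0.23. Among 15 other homeobox genes, MEOX1 rose (0.67, edgeR adjusted p = 0.0202). None of 10 CTCF and cohesin genes and none of 13 tested genes beside or inside the clusters was called by edgeR or DESeq2, and each of these lists had 1 gene with an unadjusted p under 0.05. DESeq2 with the pairing called none of RDH10, STRA6 and MEOX1. In all, 7 genes of these lists were higher and 2 lower, 9 of 112 tested (8.04%), beside 9.08% of all genes. Without the pairing (2.4% of all genes called), or without replicate C (2.06%), none of the genes in the lists was called.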

How the data were processed

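RNA-seq libraries of 6 HEK293T cultures were analysed, 3 CTRL and 3 PPK1. The deposited table holds raw counts per gene, whole numbers that the authors did not normalise. Per the submitters' processing notes, bcl2fastq 2.20, Trimmomatic, STAR, HTSeq, edgeR, DESeq, Cufflinks and Cuffdiff were used, with no role given. The genome build, annotation and strand setting are not given in the sources used here. Per the labels' protocols, the library kit keeps strand. Gene identifiers were matched to GENCODE 29 (57447 of 58051, 98.96%) for exon lengths and overlaps.

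Counts were tested across all genes with edgeR 4.0.16 in R 4.3.3 (filterByExpr with a minimum count of 10, TMM scaling, quasi-likelihood test, letter as a block, Benjamini-Hochberg threshold 0.05). The submitters describe samples of the same letter as matched, which is the source of the pairing. Same-letter samples deviated together with correlations of 0.109 (B), 0.135 (C) and 0.0476 (D) over all genes tested, and pairs of different letters had -0.120 to -0.00506. The deviations were taken from group means and cancel within a group. Negative values for different letters therefore follow in part from positive values for the same letter. CPM values (counts scaled to a common library size) used the TMM-scaled library sizes. Alternatives were a fit with no block, other scalings, filters, DESeq2 1.42.0, robust dispersion, GC and length offsets, and leaving out each replicate.

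The members and lists were chosen with earlier results of these data known. Genes are named if they were called members, the 3 coding members of each cluster with the highest CTRL level per length, non-coding members with a mean of at least 50 counts, or up to 3 called genes of each list. MEIS1, EZH2, marker genes, overlapping genes, low members, paralogues and HOTTIP were added to these by name. Depth differed between libraries, which makes low transcripts the least precise. Single values of 1 member, its antisense ratio and a few sequences are not reported here.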

Additional observations from a re-analysis of the deposited data

How the results depend on the processing

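The 6 called members had 66 values over 11 alternatives, of which 48 kept the call and 18 lost it, all with the same direction. The count called higher (4) was 0 with no replicate block, 1 with DESeq2, and 1 to 6 when a replicate was left out. The count called lower (2) was 1 with no replicate block, 5 with GC and length offsets beside the block, and 1 to 4 when a replicate was left out. The share of all genes called (9.08%) moved with the setting too. It was 2.4% with no block, 4.4% with DESeq2, 12.5% without replicate B and 14% with GC and length offsets. In the related lists, the count higher (7) was 0 with no replicate block, 3 with upper-quartile scaling, 3 with DESeq2, 11 with GC and length offsets, and 0 to 13 when a replicate was left out. The count lower (2) was 0 with no replicate block, 4 with RLE or upper-quartile scaling, and 0 to 4 when a replicate was left out. The low counts came without replicate C, where 2.06% of all genes were called. The non-coding median (-0.07) was -0.10 over members with a mean of at least 50 counts, -0.13 with GC and length offsets, and -0.1294 to -0.06983 when a replicate was left out. The HOXC median was -0.0086 with upper-quartile scaling and -0.0489 with GC and length offsets, and the HOXD median -0.05725 to 0.07135 when a replicate was left out. The cause of these shifts was not tested. Without division by length, CTRL shares were HOXB 34.04%, HOXC 13.6% and HOXD 18.73%. With coding members only they were HOXA 29.79%, HOXB 33.98%, HOXC 13.27% and HOXD 22.96%. Depth limits most the antisense transcripts with few counts, such as HOTTIP (SE 0.21).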
